A study of Mus musculus with 9 samples.

Results

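A set of 8 genes of neuropeptide and vasoactive peptide signaling was followed in enteric glia, the supporting cells of the nervous system of the gut wall. They were the receptors Ntsr1, Calcrl, Agtr1a and Ednra, the receptor partners Ramp1, Ramp2 and Ramp3, and the peptide precursor Agt. Ntsr1, Ramp1, Agtr1a and Agt were selected on their lower signal after lipopolysaccharide (LPS, a bacterial cell wall component) on these same arrays, and the others were added as their relatives. Of the 8 genes, 7 had a probe that the platform annotation assigned to them, 9 probes in all, among 16593 genes with a probe. No probe carried Ednra, which was not analysed here. All 7 had a probe above background on at least 1 of 9 arrays and were tested, among 10796 genes tested.

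Expression was measured on MouseRef-8 beadchips, 1 array a sample, in 3 groups of 3 replicates. LPS-stimulated gliospheres were free-floating spheres grown from sorted glia and kept for 48 h with LPS from E. coli at 100 µg/ml, untreated gliospheres were the parallel wells without LPS, and GFAP-glia in vivo were lysed directly after sorting. All cells came from the small intestinal muscle and myenteric plexus of FVB mice at postnatal day 7 that carried the hGFAP-eGFP transgene, and all were sorted for the green reporter, which the human GFAP promoter drives. Each replicate was 1 litter, so animals were pooled, and the LPS and untreated wells of a number were split from the same preparation. The labels do not say that an in vivo sample shared its litter with the gliospheres of the same number.

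Both receptor families are well known in the gut. RAMP proteins are single-pass partners that carry the calcitonin receptor-like receptor, encoded by Calcrl, to the cell surface and set its ligand: with RAMP1 it binds calcitonin gene-related peptide (CGRP), with RAMP2 or RAMP3 adrenomedullin. Neurotensin, released by endocrine cells of the small intestine and by nerves, acts on the G protein-coupled receptor Ntsr1. Angiotensinogen, the product of Agt, is cut by renin and angiotensin-converting enzyme to angiotensin II, whose main receptor in rodents is encoded by Agtr1a.

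Values are normalized signals on a log2 scale, after background correction and a variance-stabilizing transform, so a difference of 1 is a doubling of corrected signal. A probe was called above background where its detection p, the chance of such a signal among negative control beads, was at most 0.05. The arrays detected 46.6 to 50.1% of probes, and median signal before normalization was 145.2 to 195.6 on LPS, 193.6 to 215.5 on untreated and 123.8 to 164.5 on in vivo arrays. Gfap itself, the gene behind the sort, was above background on 3 of 3 LPS-stimulated and 3 of 3 untreated arrays but on 0 of 3 in vivo arrays, with normalized signals of 8.61 ± 0.23, 8.14 ± 0.81 and 3.77 ± 0.60 (SD, n = 3 each). Fabp7, another glial marker, was above background on 0 of 3 LPS-stimulated, 0 of 3 untreated and 2 of 3 in vivo arrays. The glial and neural crest marker Ngfr, the brightest of the tested glial markers, was detected on all 9. It averaged 12.91 in LPS-stimulated gliospheres, 12.81 in untreated gliospheres and 13.34 in vivo, and so was highest in vivo. The remaining tested glial markers were lowest in vivo, as Gfap was. In the same order of groups, Cdh19 averaged 9.31, 8.91 and 6.08 and S100b 5.27, 6.55 and 4.89. The arrays measure whole cell preparations, so fewer cells of a type and less RNA per cell cannot be told apart.

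Among the receptors, Ntsr1 was low after LPS. Its normalized signal was 3.62, 4.38 and 3.95 in LPS-stimulated gliospheres and 6.58, 6.41 and 6.98 in untreated gliospheres of replicates 1, 2 and 3. None of the 3 LPS-stimulated samples was above background, whereas 3 of 3 untreated samples were, and the groups did not overlap. The log2 fold change was -2.67 ± 0.31 (SE), and with the undetected probe set no lower than the dimmest detected signal of its array, Ntsr1 was at least 3.56-fold lower after LPS. Here and below, such a bound compares group means on this scale. It does not allow for the spread between replicates or for other ways of normalizing, which can give smaller folds. On the scanner scale these were signals of 171, 153 and 133 with LPS and 299, 280 and 371 without.

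The angiotensin receptor Agtr1a was lower after LPS too, but was still measured there. It stood at 5.77, 5.94 and 5.76 in LPS-stimulated gliospheres and at 7.43, 7.79 and 7.91 in untreated gliospheres, and was above background in all of them. The lowest untreated sample was thus above the highest LPS-stimulated one, with a log2 fold change of -1.89 ± 0.22 (SE), or 3.70-fold lower. The LPS-stimulated samples lay close together (SD 0.10).

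Ramp1, the partner that makes the CGRP receptor, was 6.96, 7.19 and 6.22 in LPS-stimulated gliospheres and 9.15, 9.54 and 9.03 in untreated gliospheres. It was above background in 3 of 3 samples of either group. Its log2 fold change was -2.45 ± 0.29 (SE), or 5.46-fold lower after LPS. Replicate 3 was the lowest sample of both groups.

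Agt, the one ligand precursor, was dim throughout. Its values were 3.92, 3.94 and 3.57 in LPS-stimulated gliospheres, none above background, and 5.50, 5.20 and 6.42 in untreated gliospheres, all above background. The groups did not overlap, the log2 fold change was -1.90 ± 0.40 (SE), and the bound was at least 1.85-fold lower after LPS. Untreated replicate 3 was the highest sample.

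Taken by litter, LPS-stimulated minus untreated was negative in 3 of 3 litters for each of the 4 chosen genes. It was so too for the relatives Ramp2 (between -0.49 and -0.13) and Ramp3 (between -1.81 and -0.75). The share of all genes with this pattern was not counted, so it is not read as particular to the chosen genes. The differences were between -3.02 and -2.03 for Ntsr1, between -2.82 and -2.19 for Ramp1, between -2.15 and -1.66 for Agtr1a, and between -2.86 and -1.26 for Agt. Across all genes tested, 9.86% were lower after LPS without overlap between the groups, and 0.204% were lower at an adjusted p under 0.05. These values chose the 4 genes, so they are given without a test. Ntsr1 and Agt were not above background after LPS, while Ramp1 and Agtr1a remained above it, so Ramp1 and Agtr1a were reduced rather than lost.

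**Figure D1:**
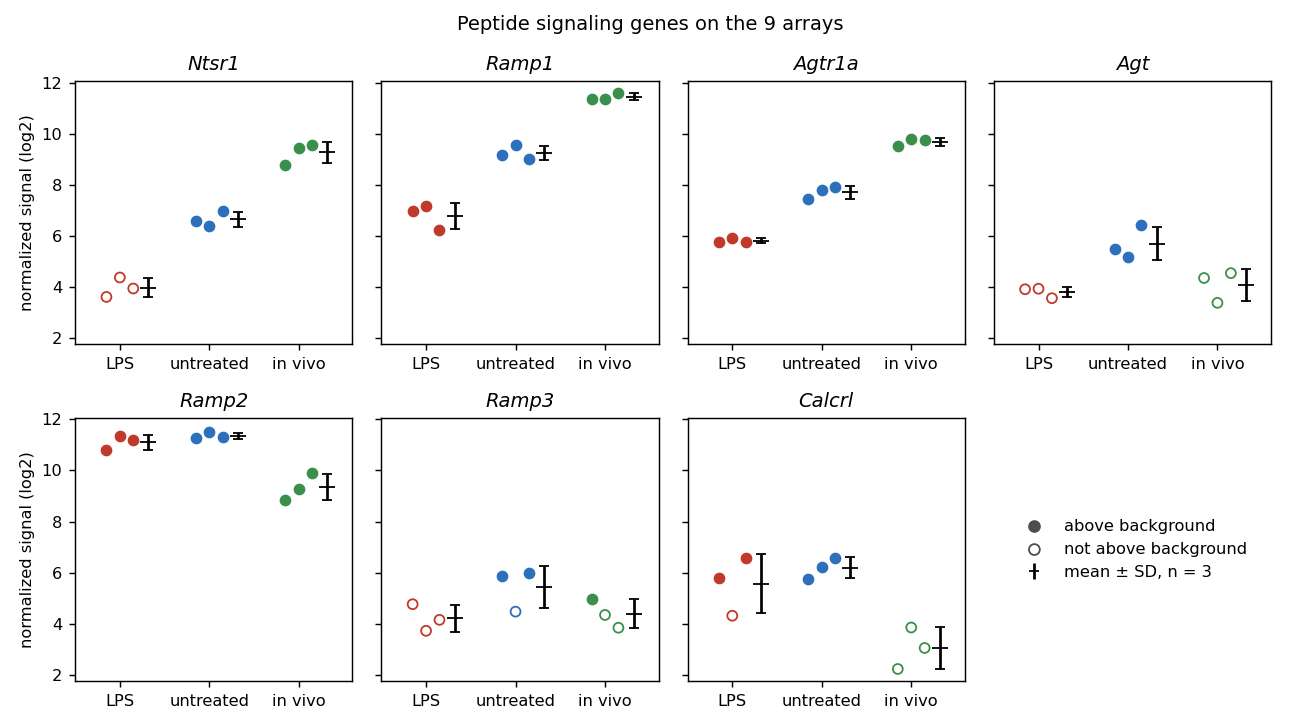
Normalized signal (log2) of the 7 genes on each of the 9 arrays, in LPS-stimulated gliospheres, untreated gliospheres and GFAP-glia in vivo. Open circles are samples not above background, and bars are mean ± SD (n = 3). Ntsr1, Ramp1 and Agtr1a step upward across the 3 groups, Ramp2 and Calcrl are lowest in vivo, and Agt was above background only in untreated gliospheres.

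The sequence before the gene start was read for Ntsr1, Ramp1 and Agt, 3 of the 4 genes that were low together after LPS, from RefSeq (GRCm38.p6). For 6 of the 8 genes the RefSeq table held a promoter, and Agtr1a and Ramp2 had none there. The 250 bases before the start lie at chr2:180499726-180499975 (+ strand) for Ntsr1, chr1:91179572-91179821 (+ strand) for Ramp1 and chr8:124569707-124569956 (- strand) for Agt, and are shown 5′ to 3′ on the strand of the gene. Capitals mark a TATA box (TATAAA) or a cAMP response half-site (TGACG), searched on both strands.
Ntsr1: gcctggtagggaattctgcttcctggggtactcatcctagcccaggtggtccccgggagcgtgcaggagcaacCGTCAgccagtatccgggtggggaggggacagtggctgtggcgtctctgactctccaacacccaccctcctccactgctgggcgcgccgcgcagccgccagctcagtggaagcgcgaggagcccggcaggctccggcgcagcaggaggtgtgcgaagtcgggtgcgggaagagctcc
Ramp1: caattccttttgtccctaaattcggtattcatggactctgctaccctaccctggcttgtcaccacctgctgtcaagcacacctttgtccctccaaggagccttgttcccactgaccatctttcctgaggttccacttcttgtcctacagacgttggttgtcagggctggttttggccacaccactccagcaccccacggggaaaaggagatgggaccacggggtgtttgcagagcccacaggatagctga
Agt: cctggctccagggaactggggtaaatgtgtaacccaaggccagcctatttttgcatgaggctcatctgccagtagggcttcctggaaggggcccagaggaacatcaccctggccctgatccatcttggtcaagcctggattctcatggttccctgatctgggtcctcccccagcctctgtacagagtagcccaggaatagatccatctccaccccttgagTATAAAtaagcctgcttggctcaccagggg

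Agt carried a TATA box 30 to 25 bases before its start, a motif that 12.4% of 32851 promoter windows held. Ntsr1 carried 1 half-site, on the opposite strand (CGTCA), 177 to 173 bases before its start, as 17.8% of windows did on either strand. Ramp1 had neither set of letters. A GC box (GGGCGG, in 32.7% of windows), an AP-1 site (TGANTCA, in 6.75%) and an NF-kB site (in 3.9%) were matched in none of the 3 windows. Among the relatives, the window of Ramp3 held 1 NF-kB site and 3 GC boxes and that of Calcrl 1 GC box. Both windows ran into the gene as annotated, and the Calcrl box and the last Ramp3 GC box lay within it. These matches describe letters only.

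None of the 3 relatives passed the test between LPS-stimulated and untreated gliospheres (limma with Benjamini-Hochberg adjustment over all probes tested), in a comparison where 0.991% of genes did, 107 of 10796. That count over all genes was 33 to 175 when 1 sample was left out, and the relatives stayed at 0 each time. Ramp2, the partner for adrenomedullin, was 10.78, 11.33 and 11.17 in LPS-stimulated gliospheres and 11.27, 11.49 and 11.30 in untreated gliospheres. The groups overlapped, and the log2 fold change of -0.26 ± 0.30 (SE) had a 95% confidence interval of -0.93 to 0.41 (adjusted p = 1). A reduction of up to 0.93 therefore remained within the interval.

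Calcrl, the receptor that all 3 partners share, was 5.80, 4.32 and 6.58 in LPS-stimulated gliospheres and 5.76, 6.23 and 6.58 in untreated gliospheres. LPS-stimulated replicate 2 alone was not above background, and the other pairs of wells were level, with differences of 0.04 in litter 1 and 0.00 in litter 3 against -1.92 in litter 2. The log2 fold change was -0.62 ± 0.59 (SE, adjusted p = 1, 95% interval -1.96 to 0.71). Without LPS-stimulated replicate 2 it was 0.00.

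Ramp3, the second adrenomedullin partner, was near background. Its main probe gave 4.77, 3.73 and 4.16 in LPS-stimulated gliospheres, none above background, and 5.86, 4.48 and 5.98 in untreated gliospheres, 2 of them above it. The log2 fold change of -1.22 ± 0.47 (SE) did not pass the test (adjusted p = 0.532, 95% interval -2.28 to -0.15). A second probe, above background on 1 untreated array only, gave -1.17 ± 0.33 (SE, adjusted p = 0.258), and the remaining probe was not above background on any array.

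**Figure D2:**
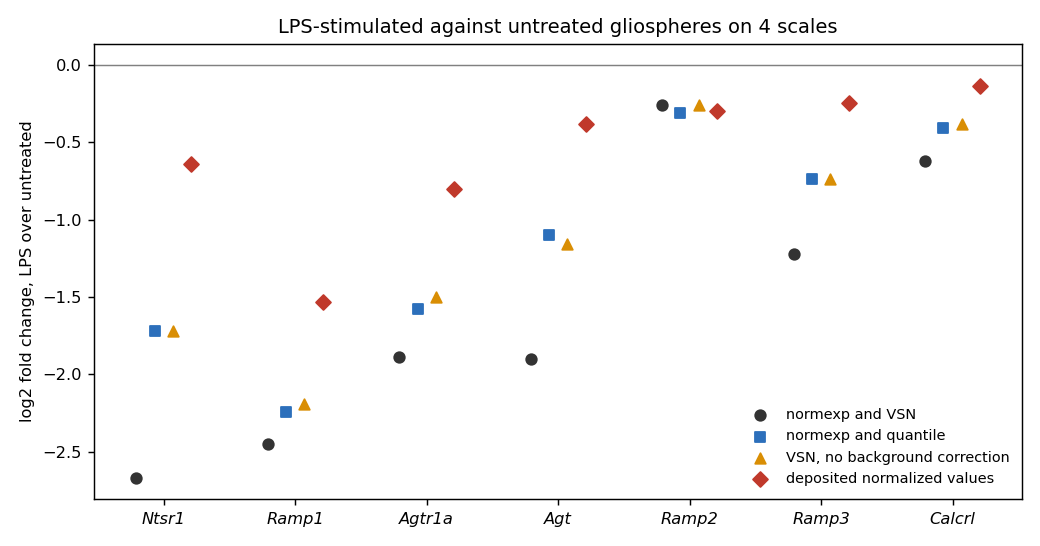
Log2 fold change of LPS-stimulated over untreated gliospheres for the 7 genes, with the values background-corrected and variance-stabilized (circles), background-corrected and quantile-normalized (squares), variance-stabilized alone (triangles) or as deposited in normalized form (diamonds). All 7 genes were at or below 0 on each scale, and the size for Ntsr1 ran between -2.67 and -0.64.

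The size of these differences depended on the background correction and the normalization. On the deposited normalized values, which carry the background within them, the log2 fold changes were -0.64 for Ntsr1, -1.53 for Ramp1, -0.80 for Agtr1a and -0.38 for Agt. With background correction and quantile normalization they were -1.72 for Ntsr1, -1.58 for Agtr1a and -1.10 for Agt, and without background correction -1.72, -1.50 and -1.16 for the same 3 genes. Ramp1 moved little on these scales, at -2.24 and -2.19. The direction was the same on every scale.

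Few other genes of these peptide systems passed the test with LPS. Of 114 genes in 6 lists of ligands, receptors, processing enzymes and G protein relay, 72 were tested, and 1 rose, none fell and 71 did not pass, beside 0.787% higher and 0.204% lower among all genes. At an unadjusted p under 0.05 there were 8, and the median log2 fold change was 0.04, against -0.01 over all genes. The one was Rgs16, an inhibitor of Gq and Gi signaling, with 12.12 ± 0.20 in LPS-stimulated and 9.90 ± 0.40 in untreated gliospheres (SD, n = 3 each), a log2 fold change of 2.22 ± 0.40 (SE, adjusted p = 0.0422). This call was kept with the litter as a block among the gliosphere arrays alone. It was lost with the replicate number as a block over all 9 arrays, without the detection filter, and without any 1 gliosphere array or in vivo replicate 2.

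Several ligand genes of these receptors were not above background in the gliospheres. Nts, the neurotensin precursor, was above background on 0 of 3 LPS-stimulated and 0 of 3 untreated arrays, and so were Adm, the adrenomedullin precursor, and Calcb, the precursor of beta-CGRP. The sortilin gene Sort1, which encodes a second kind of neurotensin binding protein, was 12.71 ± 0.06 in LPS-stimulated and 12.90 ± 0.11 in untreated gliospheres (SD, n = 3 each, log2 fold change -0.19 ± 0.21, adjusted p = 1). Ntsr2, the other G protein-coupled neurotensin receptor, was detected in 3 of 3 LPS-stimulated and 1 of 3 untreated samples, with a log2 fold change of 1.12 ± 0.42 (SE) that did not pass (adjusted p = 0.511). In the angiotensin system, Agtr1b, the second rodent type 1 receptor gene, was not above background on any of the 6 gliosphere arrays, and the receptor-binding protein gene Agtrap differed by 0.10 ± 0.22 (SE, adjusted p = 1). The endothelin B receptor gene Ednrb was 14.28 ± 0.28 in LPS-stimulated and 14.42 ± 0.20 in untreated gliospheres (SD, n = 3 each, adjusted p = 1).

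Markers of other cell types gave no call in the same direction. Of 48 tested markers of 9 cell types, 2 of 8 fibroblast and mesenchymal genes were higher after LPS and no marker was lower. The summed normalized signal of 8 smooth muscle markers, taken on the linear scale, was 2860 to 3810 on LPS and 4310 to 7490 on untreated arrays, so it was lower after LPS without overlap. Acta2 carried this sum, at 11.31 in LPS-stimulated and 12.38 in untreated gliospheres on the log2 scale, while the mean of Actg2 was 7.19 in LPS-stimulated and 5.40 in untreated gliospheres and neither passed the test. Myh11 and Des were not above background on any gliosphere array. The sum of 5 glial markers was 7860 to 10100 on LPS and 8040 to 8360 on untreated arrays, that of 6 neuronal markers 20100 to 23600 and 17800 to 23400, and that of 6 endothelial markers 580 to 823 and 423 to 632. The part of smooth muscle or other cells in the values of Ntsr1, Ramp1, Agtr1a and Agt was not tested.

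The gliospheres were next set against GFAP-glia in vivo, which asks how the culture itself stands to the cells it came from. The comparison of LPS-stimulated gliospheres with GFAP-glia in vivo shares the LPS arrays, and that of untreated gliospheres the untreated arrays, with the contrast that chose Ntsr1, Ramp1, Agtr1a and Agt. That choice favors low LPS values and high untreated values. With LPS-stimulated gliospheres 5 of 7 genes passed the test against GFAP-glia in vivo, 2 higher and 3 lower, where 29.3% of all genes did (14.8% higher and 14.5% lower). The 3 lower were Ntsr1, Ramp1 and Agtr1a, in the direction that the choice favors. With untreated gliospheres 6 of 7 passed, 3 higher and 3 lower, where 26.0% of all genes did (13.1% higher and 12.9% lower). Calcrl was above background only in gliospheres, and Agt only in the untreated ones. Both entered the test through the group where they were high, so neither count is read as an excess over these shares.

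Ntsr1 was highest in vivo, at 8.79, 9.45 and 9.56, above every gliosphere sample. In LPS-stimulated gliospheres it was lower by a log2 fold change of -5.28 ± 0.31 (SE, adjusted p = 6.6e-06), at least 21.8-fold. The choice of the gene favors that direction, so this adjusted p is not read as support. In untreated gliospheres, where the choice acts toward higher values, Ntsr1 was still lower by -2.61 ± 0.31 (SE, adjusted p = 3.9e-04), or 6.12-fold.

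Ramp1 was 11.37, 11.37 and 11.59 in vivo, again above every gliosphere sample. The log2 fold change was -4.65 ± 0.29 (SE, adjusted p = 9.6e-06) for LPS-stimulated and -2.20 ± 0.29 (SE, adjusted p = 7.9e-04) for untreated gliospheres, or 25.1-fold and 4.60-fold lower. Agtr1a was 9.51, 9.79 and 9.76 in vivo and followed the same order, with log2 fold changes of -3.87 ± 0.22 (SE, adjusted p = 6.1e-06) for LPS-stimulated and -1.98 ± 0.22 (SE, adjusted p = 3.0e-04) for untreated gliospheres. For Ramp1 and Agtr1a too, the adjusted p with LPS is not read as support, since the choice favors low LPS values. Ntsr1, Ramp1 and Agtr1a were thus lowest with LPS, intermediate in untreated gliospheres and highest in vivo with no overlap between groups, an order that 2.05% of all genes tested showed (221 of 10796). The choice of the genes fixed the lower step of this order. Among the 1064 genes whose LPS samples lay below the untreated ones without overlap, a background added after the values were seen, 20.8% also had every in vivo sample above the untreated ones, and nothing is read from either share.

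Ramp2 ran the other way. It was 8.86, 9.29 and 9.90 in vivo, below every gliosphere sample, and was higher by 1.74 ± 0.30 (SE, adjusted p = 0.00244) in LPS-stimulated and by 2.00 ± 0.30 (SE, adjusted p = 0.00143) in untreated gliospheres, or 3.35-fold and 4.01-fold. Ramp1 and Ramp2 therefore stood in opposite order between culture and tissue.

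Calcrl was not above background in vivo, at 2.24, 3.86 and 3.06. Its probe was higher by 2.51 ± 0.59 (SE, adjusted p = 0.0124) in LPS-stimulated gliospheres, where 2 of 3 samples were above background, and by 3.14 ± 0.59 (SE, adjusted p = 0.00503) in untreated gliospheres. As bounds these were at least 1.63-fold higher with LPS and at least 2.51-fold higher without. Calcrl entered the test through the gliospheres alone, which fixed this direction, so its adjusted p in either comparison is not read as support. The in vivo samples thus held a detected Ramp1 signal with no detected Calcrl signal on this probe.

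Agt was not above background in vivo either, at 4.36, 3.39 and 4.55. In LPS-stimulated gliospheres, also without a detected sample, the difference was -0.29 ± 0.40 (SE, adjusted p = 0.623, 95% interval -1.19 to 0.60). Untreated gliospheres were higher by 1.61 ± 0.40 (SE, adjusted p = 0.0173, 95% interval 0.71 to 2.50), with a bound on the means of at least 1.79-fold. This call rests on 1 sample, since without untreated replicate 3 the log2 fold change was 1.25 (adjusted p = 0.0591), and its direction is the one that the choice of Agt favors. Agt also entered the test through the untreated gliospheres alone, so its adjusted p there is not read as support. Ramp3 passed in neither comparison, with -0.17 ± 0.47 (SE, adjusted p = 0.821) for LPS-stimulated and 1.04 ± 0.47 (SE, adjusted p = 0.138) for untreated gliospheres.

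**Figure D3:**
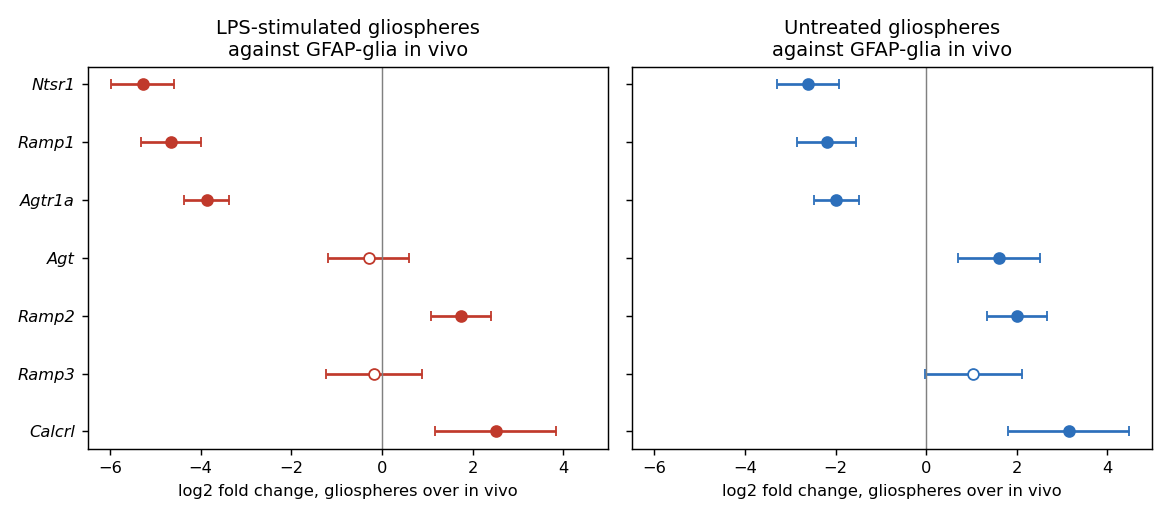
Log2 fold change of LPS-stimulated (left) and untreated (right) gliospheres over GFAP-glia in vivo for the 7 genes, with 95% confidence intervals from the limma fit (n = 3 samples a group). Filled points had an adjusted p under 0.05. Ntsr1, Ramp1 and Agtr1a lie below 0 and Ramp2 and Calcrl above 0 in both panels, and Agt passes only for untreated gliospheres.

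Many other genes of these systems also differed from the in vivo samples. Of 72 tested, 7 were higher and 24 lower in LPS-stimulated gliospheres, beside 14.8% higher and 14.5% lower among all genes, and 7 were higher and 24 lower in untreated gliospheres, beside 13.1% and 12.9%. Of the 24 lower, 18 were above background on no LPS-stimulated array and 16 on no untreated array. Genes above background only in vivo entered the test through the group where they were high, which fixed their direction, so the excess of lower genes is not read as a result. In each comparison 13 of 21 other peptide receptors were lower and none higher, and 12 of the 13 were above background on no array of the gliospheres compared. Oprk1, the kappa opioid receptor, was at least 41.1-fold lower in LPS-stimulated and at least 42.9-fold lower in untreated gliospheres. Tacr3, the neurokinin B receptor, was at least 16.7-fold and 17.4-fold lower. Both were above background in 3 of 3 in vivo samples and in no gliosphere sample, so they are described without a test.

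Some ligand genes were above background in vivo and not in the gliospheres. Calcb, Edn1 and Edn2 entered the test only through the in vivo samples, which fixed their direction, so they are described without a test. Calcb was 10.48 ± 1.09 in vivo (SD, n = 3), with bounds of at least 50.6-fold lower for LPS-stimulated and at least 52.7-fold lower for untreated gliospheres. The endothelin precursor Edn1 was at least 18.3-fold lower in LPS-stimulated and at least 19.1-fold lower in untreated gliospheres, and Edn2 at least 1.86-fold and 1.94-fold lower. Ece1, which encodes an enzyme that trims endothelin precursors, was lower by -1.51 ± 0.32 (SE, adjusted p = 0.00912) in untreated gliospheres, and its difference of -0.82 ± 0.32 in LPS-stimulated gliospheres did not pass (SE, adjusted p = 0.0897). The sorting receptor gene Sorl1 was lower by -2.48 ± 0.37 with LPS (SE, adjusted p = 0.00118) and by -2.69 ± 0.37 without (SE, adjusted p = 9.5e-04).

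In the angiotensin list 2 of 6 tested genes were higher in the gliospheres of either kind and none was lower, a share near the 29.3% (LPS-stimulated) and 26.0% (untreated) called in either direction among all genes. Prcp, a carboxypeptidase that inactivates angiotensin II, was higher by 2.83 ± 0.38 in LPS-stimulated and by 2.62 ± 0.38 in untreated gliospheres (SE, adjusted p = 6.3e-04 and 0.00124). Agtrap, whose product promotes internalization of the type 1 receptor, was higher by 1.27 ± 0.22 with LPS and by 1.17 ± 0.22 without (SE, adjusted p = 0.00307 and 0.00561). Receptor gene and receptor regulator thus lay on opposite sides of the in vivo level. Among 30 relay genes, 5 were higher and 7 lower in LPS-stimulated gliospheres, beside 14.8% higher and 14.5% lower among all genes. In untreated gliospheres 5 were higher and 6 lower, beside 13.1% and 12.9%. Of the lower ones, 3 were above background on no LPS-stimulated array and 1 on no untreated array, so nothing is read from these counts. The relay gene Rgs4, another inhibitor of Gq signaling, was lower by -2.61 ± 0.24 with LPS and by -3.03 ± 0.24 without (SE, adjusted p = 7.7e-05 and 4.8e-05).

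**Figure D4:**
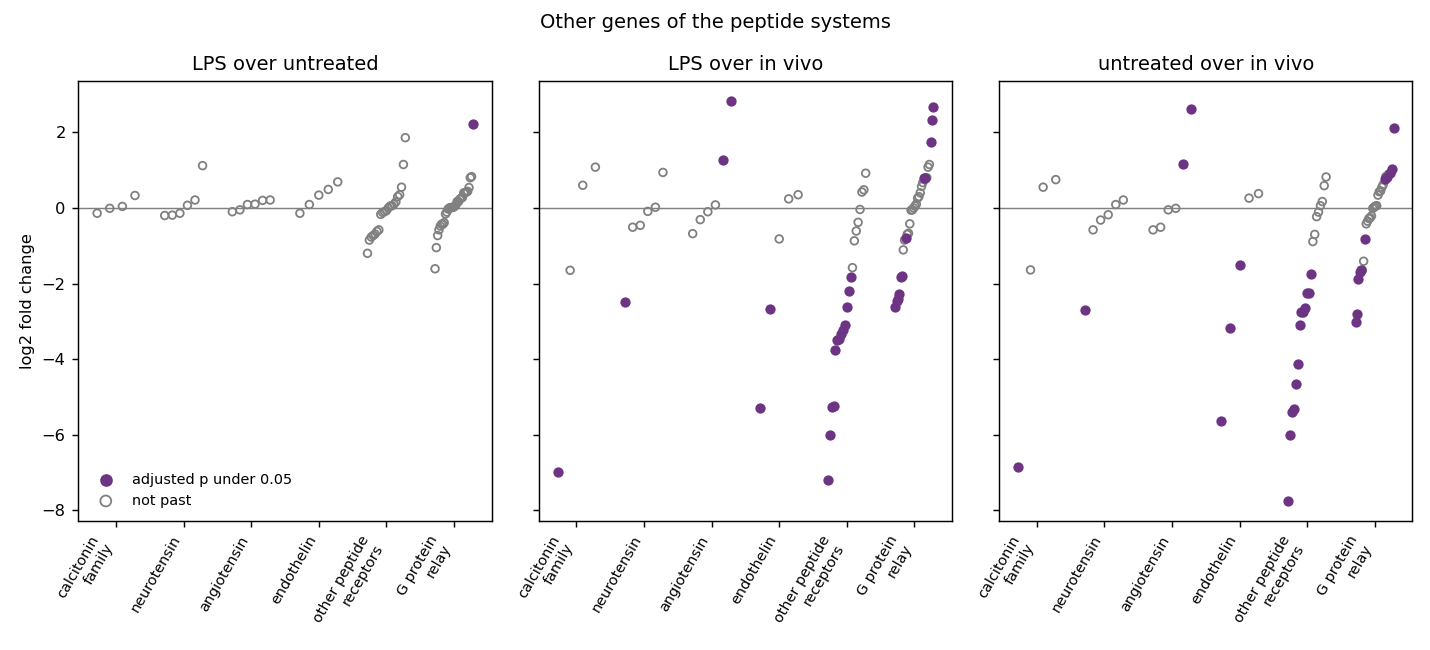
Log2 fold changes of the 72 tested genes of the calcitonin, neurotensin, angiotensin and endothelin systems, of other peptide receptors and of the G protein relay, each point 1 gene, in LPS-stimulated over untreated gliospheres (left), LPS-stimulated gliospheres over the in vivo samples (middle) and untreated gliospheres over GFAP-glia in vivo (right). Genes not above background in a group are at their measured value. Filled points had an adjusted p under 0.05: 1 on the left and 31 in each of the other panels, where the other peptide receptors, most of them above background only in vivo, lie mostly below 0.

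The make-up of the samples differed along with these comparisons. The summed signal of the 6 neuronal markers was 20100 to 23600 in LPS-stimulated gliospheres, 17800 to 23400 in untreated gliospheres and 46400 to 54100 in vivo. Of the 6, 3 were lower in gliospheres of either kind at an adjusted p under 0.05. Prph, which encodes a neuronal intermediate filament, differed most, at 5.81 ± 0.48, 6.04 ± 0.08 and 12.37 ± 0.56 on the log2 scale (SD, n = 3 each). Stmn2, the brightest, averaged 13.17, 13.25 and 14.68. Elavl4 (12.16, 12.10 and 12.29) and Ret (12.07, 11.90 and 11.86) were level and high in all groups. Smooth muscle markers summed to 9970 to 27800 in vivo, mesothelial markers to 24.4 to 106, 32.6 to 163 and 492 to 5350, and macrophage and leukocyte markers to 218 to 618, 158 to 401 and 1030 to 1410 in LPS-stimulated gliospheres, untreated gliospheres and in vivo. These 4 sums were higher in vivo than in any gliosphere sample. Other sums overlapped in vivo with LPS-stimulated gliospheres. In vivo, glial markers summed to 8730 to 13700 and endothelial markers to 626 to 1140. Fibroblast and mesenchymal markers summed to 7860 to 11700, 6630 to 8590 and 9470 to 15800 in the same order of groups. Those of interstitial cells of Cajal were lower in vivo, at 88.7 to 292, 114 to 287 and 52.1 to 77.7. Of the macrophage markers 3 were tested and Adgre1 carried the in vivo sum, while Lyz2 had means of 7.73, 5.51 and 4.02 on the log2 scale in the same order of groups. Pericyte markers summed to 500 to 734, 322 to 589 and 158 to 268, a sum carried by Cspg4 (9.02, 8.50 and 5.44), while Rgs5 was above background in 2 of 3 and Abcc9 in 3 of 3 in vivo samples and neither on any gliosphere array. The part of these cells in the differences from the in vivo samples was not tested.

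Among all 10795 other genes, those most like each chosen gene over the 9 arrays were found by the root mean square difference of centered log2 values. For Ntsr1 they were Ramp1 (0.47), Sidt1 (0.51) and Bmp4 (0.52), where the median gene stood at 2.25. For Ramp1 they were Bmp4 (0.35), Agtr1a (0.43) and Ntsr1 (0.47), against a median of 2.00. Bmp4, a bone morphogenetic protein, averaged 4.74 in LPS-stimulated gliospheres, 7.68 in untreated gliospheres and 9.56 in vivo. For Agtr1a they were Pcnx2 (0.33), Nrarp (0.39), a regulator of Notch signaling, and Sybu (0.40), with a median gene at 1.68. For Agt, they were the dim genes Afap1 (0.42), H2ac1 (0.47) and Zfp385c (0.47), against 1.06. The chosen genes share the arrays and the rule that picked them, so their likeness to each other is a description.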

How the data were processed

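Total RNA of 9 samples was hybridized to Illumina MouseRef-8 beadchips and read with GenomeStudio (the submitters' processing notes). The deposited table gave, for 25697 probes, a signal intensity and a detection p-value per array, and a second table gave the authors' normalized intensity. Values of both tables stood without their decimal point, in the first 95.8 to 98.2% of signal intensities per array. The place of the point was recovered from the agreement of both tables and the detection p (462546 cells, 0 probes left out, tested on simulated data). The methods name normexp background correction and variance-stabilizing normalization. Both were recomputed from the signal intensity, with control moments inferred from detection p (limma 3.58.1, R 4.3.3), because the normalized intensity carries uncorrected background. The transform was fitted by maximum likelihood on the least deviating 0.9 of probes. Probes above background on at least 1 array and with a gene symbol were tested (14795 probes), and the moderated test of limma used all 9 arrays with 1 pooled spread (6 residual and 3.11 prior degrees of freedom) and Benjamini-Hochberg adjustment over these probes. The number of arrays limits the precision. The platform annotation named 23962 probes by gene ID and left 1719 without a symbol. A gene was described by the probe of the study's tables or else by its brightest probe.

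The 8 genes and the 6 lists were chosen with earlier results of these data known. Named genes were the 8, up to 4 genes per list and comparison with the largest change among those past the test, and the 3 genes most like each chosen gene. Values for Nts, Adm, Ntsr2, Sort1, Agtr1b and Ednrb, and marker genes, are given beyond this rule and were picked after their values were seen. Same-numbered gliosphere samples share a litter by the series' design, and correlations of how such samples deviate from their group were 0.16, 0.09 and 0.17, against -0.14 to -0.02 for other pairs. Alternatives were quantile normalization, no background correction, the authors' normalized intensity, no detection filter, a trended robust fit, other probes, the arrays of 2 groups alone, the litter as a block, and leaving out each sample.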

Additional observations from a re-analysis of the deposited data

How the results depend on the processing

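For Ntsr1, Ramp1, Agtr1a and Agt, LPS-stimulated gliospheres stayed below untreated gliospheres in all 17 alternatives run for each gene. This contrast chose the 4 genes, so their direction is a description and not support. Settings that changed only the filter, the spread, the block or the in vivo samples could not move the log2 fold change, which was identical there. The values that moved by more than the spread between replicates are those of the 3 other scales given with the plot of scales, and for Ramp1 only that of the authors' normalized values. Calcrl between them ran between -1.13 and 0.00 when 1 sample was left out, with 0.00 without LPS-stimulated replicate 2. Ramp3 in LPS-stimulated gliospheres against GFAP-glia in vivo changed sign near 0 with quantile normalization (0.01), with the authors' normalized values (0.01), without LPS-stimulated replicate 2 (0.07) and without in vivo replicate 1 (0.12), ran between -0.45 and 0.12 when 1 sample was left out, and passed between untreated gliospheres and GFAP-glia in vivo without untreated replicate 2 (1.52, adjusted p = 0.0438). Agt between untreated gliospheres and GFAP-glia in vivo missed the threshold with only the arrays of both groups (adjusted p = 0.0503) and without untreated replicate 3 (1.25, adjusted p = 0.0591). For the other members, calls against GFAP-glia in vivo kept their side of the threshold in all alternatives, but their sizes moved. With LPS, Ntsr1 ran between -5.52 and -2.29, Ramp1 between -4.85 and -3.57, Agtr1a between -3.95 and -2.31 and Calcrl between 0.53 and 3.14. In untreated gliospheres Ntsr1 ran between -2.85 and -1.64 and Calcrl between 0.67 and 3.54. The folds given as bounds therefore hold on the main scale alone. The number past the test was 5 to 7 for untreated gliospheres and 5 in every setting for LPS-stimulated gliospheres, and that of the relatives between LPS-stimulated and untreated gliospheres was 0 in every setting. Over all genes, leaving out 1 sample gave 33 to 175 calls between LPS-stimulated and untreated gliospheres, against 107, with 39 and 37 without LPS-stimulated replicates 2 and 3, 58, 43 and 33 without untreated replicates 1, 2 and 3, and 175 without in vivo replicate 1. Between untreated gliospheres and GFAP-glia in vivo it gave 1821 (without untreated replicate 2) to 3480, against 2803. The single peptide system gene past the test between LPS-stimulated and untreated gliospheres, Rgs16, became 0 without a detection filter, 0 with the replicate block over all 9 arrays, 1 with the replicate block on the gliosphere arrays alone, and 0 to 1 when 1 sample was left out. The share of higher calls there was 79.4%, 69.4% with only the gliosphere arrays, and 71.4% (without in vivo replicate 1) to 90.7% (without untreated replicate 2, 39 higher and 4 lower) when 1 sample was left out. The replicate block changed no call of a member, and the cause of these changes was not tested. Signals near background limit Agt, Ramp3 and Calcrl, for which folds are bounds on the group means where a group was not detected.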
